A study of Mus musculus with 24 samples.

Results

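G protein-coupled and second-messenger signalling genes were followed in P19 cells, a mouse embryonal carcinoma line that differentiates into neurons when exposed to retinoids. The members were all genes with a symbol of a G protein-coupled receptor family (Gpr, Adgr, Olfr, Ednr, Lpar, Mc1r to Mc5r, Opr, Tac and others), of the peptides Npy and Sst, of G protein subunits, Rgs proteins, adenylyl cyclases, phosphodiesterases, phospholipases C, protein kinases A, C and G, calmodulin-related proteins, receptor-type (Ptpr) and dual-specificity (Dusp) phosphatases, and regulators of Ras and of related small GTPases (Rasgrp and Arhg symbols among them). The letters of the symbol chose them, in any of the 23 deposited tables of differential expression, and 61 of the 1753 genes in these tables were members. Since a gene had to be in a table to be counted, members without a p-value under 0.01 in any library are outside this count. They may have stayed near the reference or moved without reaching that limit.

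The reference of each table was the WT library taken after 2 d in ethanol (EtOH), the vehicle, so the 24 libraries gave 23 comparisons with a shared reference. WT cells received all-trans retinoic acid (ATRA, a pan-agonist of the retinoic acid receptors) at 1 µM, the RARα agonist BMS753 at 1 µM, the RARβ agonist BMS641 together with the RARγ agonist BMS961, each at 0.1 µM, or EtOH, with samples at days 2, 4 and 10, and BMS961 alone at 0.1 µM with a sample at day 10. The Rara(−/−) line was sampled at day 10 with ATRA, BMS961 or the combination, the Rarb(−/−) line with ATRA, BMS753, BMS961 or the combination, and the Rarg(−/−) line with ATRA, BMS753, BMS641 or the combination, at the doses used for WT cells. For day 10, the retinoid or vehicle was given during 4 d and was followed by 6 d in Neurobasal supplemented with N2 and with B27 lacking vitamin A. The mutant lines were made by CRISPR/Cas9 cleavage with insertion of a puromycin resistance cassette, and whether each is a single clone is not given in the sources used here. Vehicle-treated mutant cells were not analysed here, so a difference of a mutant line from the WT reference joins the line, the ligand and the time. A WT value at day 4 or day 10 joins the ligand with the time, and at day 10 with the change to Neurobasal as well. EtOH is also the vehicle of the reference, so its values join the time and, at day 10, that change. Rara, Rarb and Rarg were in 0 of the 23 tables, and the loss of each receptor was not checked here.

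G protein-coupled receptors bind a transmitter, peptide or lipid outside the cell and exchange the nucleotide on a G protein inside it. The G protein then acts on enzymes that make second messengers, such as cyclic AMP from adenylyl cyclase or calcium release through phospholipase C, while Rgs proteins speed the return of the G protein to rest and phosphodiesterases break down the cyclic nucleotide. In developing neural tissue these genes set how a cell reads its neighbours, and many mark single neuronal subtypes or glial precursors.

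RefSeq promoters were found for 43 of the 61 members, with 61 promoters between them, and the 250 bases before each start were searched on both strands. Those of 4 members are shown in mm9, read 5′ to 3′ on the strand of the gene. Lpar3 and Ednrb were the members listed at both day 2 and day 4 with ATRA, Rgs8 was listed from day 4 with ATRA and holds the core motif AGGTCA that retinoic acid receptors bind, and Sst, a peptide gene induced by cyclic AMP in many cells, holds the cyclic AMP response element TGACGTCA. The capitals mark these motifs, and the sequences without capitals hold none of those searched. They lie at chr3:145883675-145883924 on the plus strand (Lpar3), chr14:104242919-104243168 on the minus strand (Ednrb), chr1:155512553-155512802 on the plus strand (Rgs8) and chr16:23890931-23891180 on the minus strand (Sst).
Lpar3: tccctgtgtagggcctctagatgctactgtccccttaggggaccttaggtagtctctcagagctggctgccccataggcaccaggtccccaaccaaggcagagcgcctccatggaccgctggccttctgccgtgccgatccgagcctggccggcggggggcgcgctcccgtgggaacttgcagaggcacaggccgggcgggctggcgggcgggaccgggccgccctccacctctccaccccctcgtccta
Ednrb: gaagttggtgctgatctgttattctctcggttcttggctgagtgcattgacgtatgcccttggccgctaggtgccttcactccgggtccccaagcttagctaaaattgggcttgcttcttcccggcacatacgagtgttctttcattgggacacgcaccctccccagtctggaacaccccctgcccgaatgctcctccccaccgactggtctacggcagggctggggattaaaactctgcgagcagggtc
Rgs8: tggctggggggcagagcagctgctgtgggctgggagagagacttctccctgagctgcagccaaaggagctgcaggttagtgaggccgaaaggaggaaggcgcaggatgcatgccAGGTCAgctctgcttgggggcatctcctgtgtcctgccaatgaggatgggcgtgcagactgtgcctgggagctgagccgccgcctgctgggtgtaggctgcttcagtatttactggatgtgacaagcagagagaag
Sst: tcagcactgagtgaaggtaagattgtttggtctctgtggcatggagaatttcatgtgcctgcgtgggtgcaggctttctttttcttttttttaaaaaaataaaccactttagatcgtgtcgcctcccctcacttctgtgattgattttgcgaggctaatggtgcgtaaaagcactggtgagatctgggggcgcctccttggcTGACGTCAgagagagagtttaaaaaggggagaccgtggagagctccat

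The cyclic AMP response element of Sst lay 48 to 41 bases before the start, and 1 of the 61 member promoters held this motif (1.64%), against 1.55% of the 32851 RefSeq promoters. The motif AGGTCA was in 5 member promoters (8.2%), those of Rgs8, Gpr155, Pde1a, Gpr63 and Rasgrp3, against 14% of all promoters. In the Rgs8 promoter shown, which is 1 of its alternative starts, it lay 136 to 131 bases before the start. Direct repeats were searched with a looser copy of this motif, in which the first base is A or G and the third G or T. Such a repeat with 1, 2 or 5 bases between the copies was in 0 member promoters. It was in 0.164, 0.174 and 0.0883% of all promoters. These matches describe the letters of short windows, and binding was not measured in them.

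Values are the authors' deposited log2 fold changes against WT EtOH at day 2, and each is followed by ± the standard error (SE) implied by its deposited p-value. This SE is the error of the authors' model, not a spread between replicates, since every condition has 1 library and no difference has a replicate check. The tables hold genes with an unadjusted p-value under 0.01, which means values at least 2.58 implied SEs from 0, and 152 of the 253 member values (60.1%) lay under 3 implied SEs. A member absent from a table is termed not listed, and it may have moved without reaching that limit. The limit was higher with ATRA or BMS753 at day 10, where the smallest absolute value of any gene in a table was 4.17 to 4.73, than in the other day 10 tables, where it was 2.71 to 3.35. Without read counts the depth behind a value is unknown, and a large fold change can rest on a reference near 0 reads. In bulk RNA, fewer cells of a type and less RNA per cell cannot be told apart. Up-regulated means a value over 2 (4-fold) and down-regulated a value under −2. All 253 member values passed this threshold, between 2.11 and 11.14 in absolute size.

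Of the 61 members, 37 had values above 0 only and 24 below 0 only (60.7 and 39.3%), and 0 had both signs. Of all 1753 genes, 65.1% had values above 0 only, 34.1% below 0 only and 0.799% both, so the split of the members is near that of the whole set. Members were listed in a median of 3 tables, as were all genes, and 19 members (31.1%) were in a single table, against 33.1% of all genes. At day 10, 51 members were listed (83.6%, against 84.4% of all genes), and 21 were listed at day 2 or day 4 (34.4%, against 38.1%), of which 10 were not listed at day 10. Among the 51, 17 were listed with ATRA or BMS753 only, 16 under the other conditions only, and 18 under both (33.3, 31.4 and 35.3%), against 37.9, 27.9 and 34.2% of the 1480 genes listed at day 10. By role, up-regulation was the direction of the 7 orphan, adhesion and class C receptors, the 4 receptor-type phosphatases, 6 of the 7 receptors named for their ligand, and 4 of the 5 Rgs proteins and partners. Down-regulation was that of 4 of the 5 G protein subunits, 5 of the 7 Arhg genes, and 4 of the 6 Ras regulators. The remaining families were mixed, with 3 of 5 cyclic nucleotide enzymes, 4 of 6 Dusp genes, 2 of 4 calcium-related genes, and 1 of 3 phospholipases and kinases up-regulated. These counts stand beside the 65.1 and 34.1% of all genes given above. Each role holds at most 7 genes, some listed in a single table, so the counts do not describe a family.

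**Figure D1:**
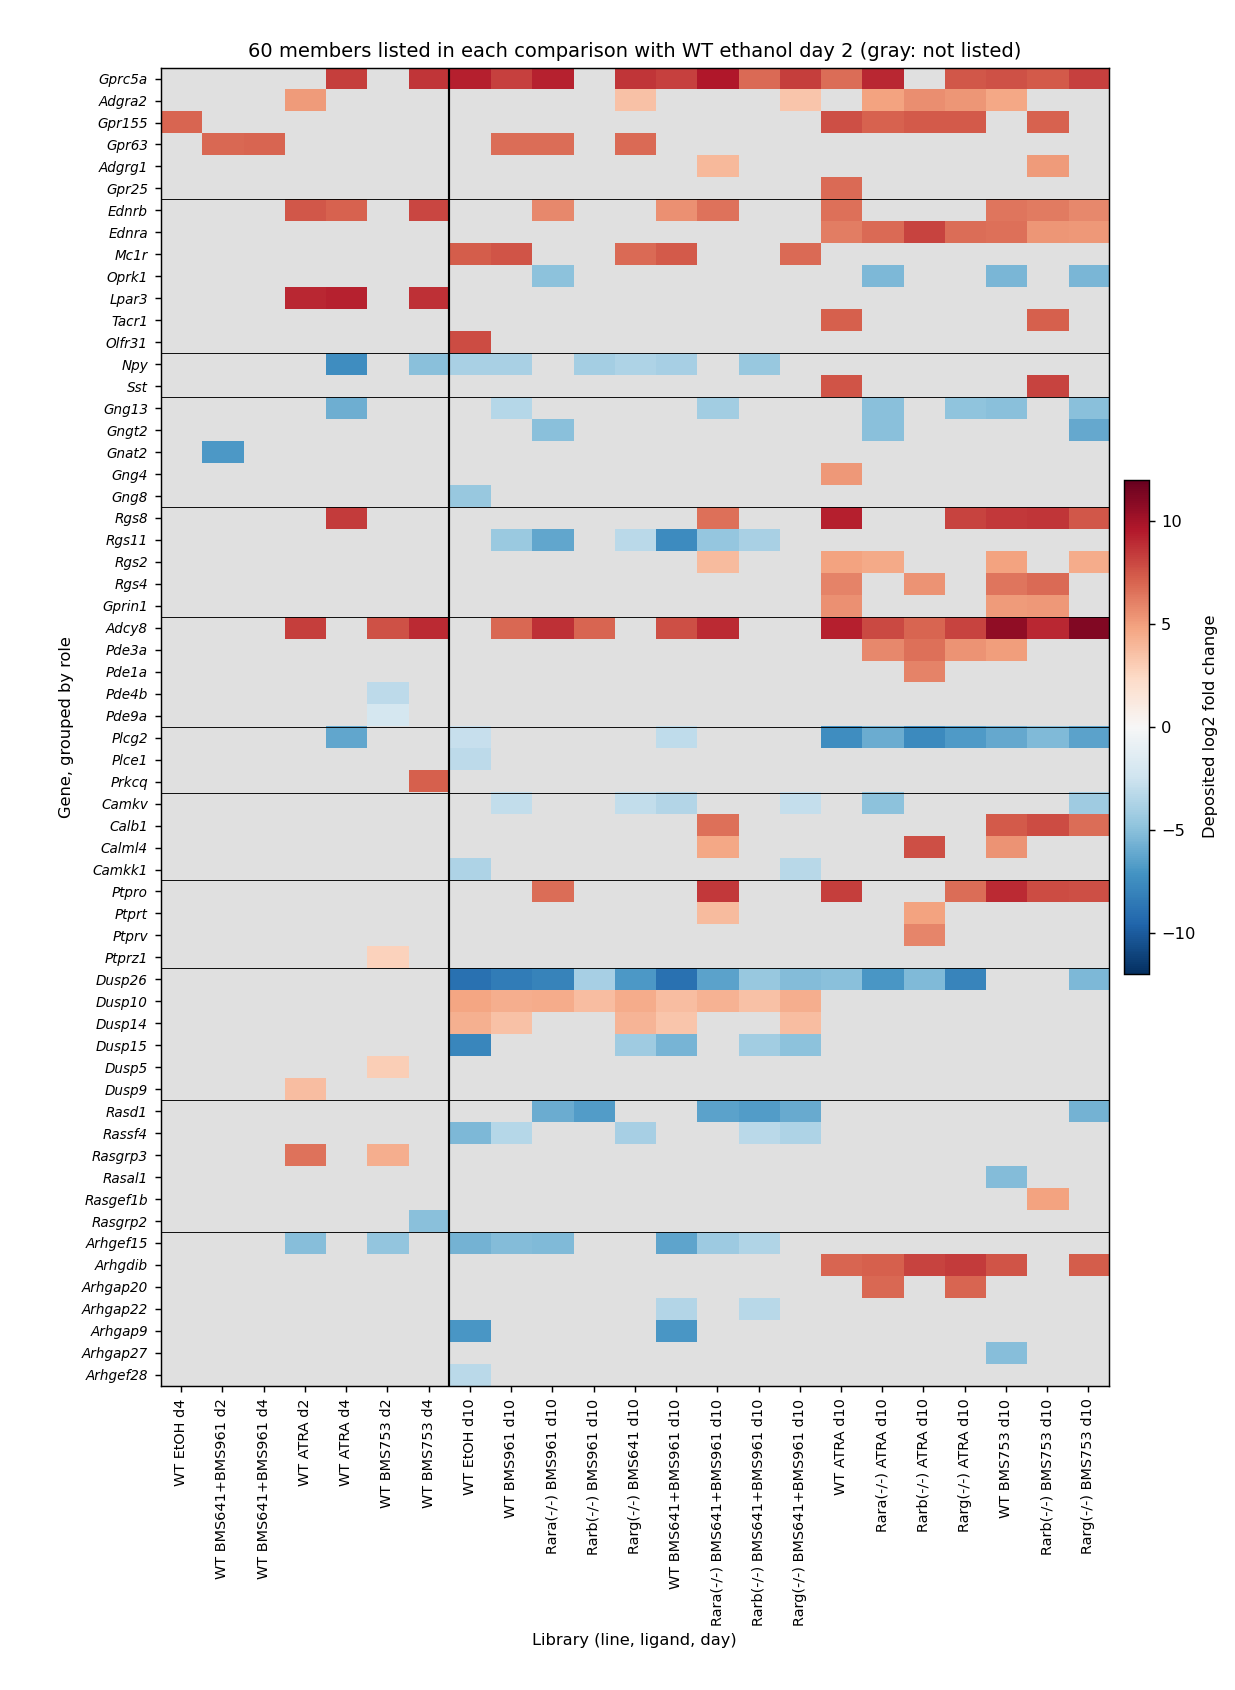
Deposited log2 fold change of 60 of the 61 members (rows, grouped by role) in the 23 comparisons with WT EtOH at day 2 (columns, by ligand and line, with days 2 and 4 left of the black line). Red is above 0, blue below 0, and gray not listed, and no row holds both colours.

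The share of up-regulated members at day 10 in WT cells ran from 8.2% in EtOH to 24.6% with ATRA or BMS753, and for all listed genes from 8.16 to 22.5%. The share of down-regulated members ran from 3.28% with ATRA to 18.0% in EtOH, while that of all genes lay between 7.47 and 9.13%. In WT cells, ATRA up-regulated 6 of the 61 members at day 2, 4 at day 4 and 15 at day 10 (9.84, 6.56 and 24.6%), against 5.65, 10.2 and 22.5% of the 1753 genes. It down-regulated 1, 3 and 2 members (1.64, 4.92 and 3.28%), against 2.57, 5.7 and 8.61% of all genes. BMS753 up-regulated 4, 5 and 15 members (6.56, 8.2 and 24.6%), against 6.39, 8.33 and 21.8%, and down-regulated 3, 2 and 5 (4.92, 3.28 and 8.2%), against 1.88, 3.31 and 9.13%. For both ligands the day 10 share of up-regulated members was close to that of all genes. With p-values under 0.001, 3 of the 15 members were left with ATRA (20%) and 2 of the 15 with BMS753 (13.3%), against 23.8 and 28.5% of all up-regulated genes.

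The combination of BMS641 and BMS961 in WT cells up-regulated 1, 1 and 6 members at days 2, 4 and 10 (1.64, 1.64 and 9.84%), against 3.71, 2.22 and 9.87% of all genes. The combination down-regulated 1, 0 and 9 (1.64, 0.0 and 14.8%), against 1.48, 2.91 and 8.5%. Both the combination and EtOH were read against the same reference. At day 10, EtOH also up-regulated 4 of the 6 members (66.7%), against 51.4% of all genes that the combination up-regulated, and also down-regulated 6 of the 9 (66.7%), against 39.6%, which leaves 2 and 3 members. EtOH alone up-regulated 1 member at day 4 and 5 at day 10 (1.64 and 8.2%), against 1.65 and 9.53%, and down-regulated 0 and 11 (0.0 and 18.0%), against 0.57 and 7.64%. BMS961 alone up-regulated 6 members at day 10 (9.84%) and down-regulated 7 (11.5%), against 8.16 and 7.47% of all genes. In EtOH at day 10 the down-regulated members thus outnumbered the up-regulated ones, while among all genes the up-regulated share was the larger.

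In the mutant lines at day 10, ATRA up-regulated 9 members in Rara(−/−), 12 in Rarb(−/−) and 11 in Rarg(−/−) cells (14.8, 19.7 and 18.0%), against 19, 20.5 and 21.4% of all genes, and down-regulated 6, 2 and 3 (9.84, 3.28 and 4.92%), against 10.4, 10.3 and 9.47%. BMS753 up-regulated 14 members in Rarb(−/−) and 9 in Rarg(−/−) cells (23.0 and 14.8%), against 22.3 and 19.9%, and down-regulated 1 and 7 (1.64 and 11.5%), against 6.79 and 10.3%. The combination up-regulated 11 members in Rara(−/−), 2 in Rarb(−/−) and 5 in Rarg(−/−) cells (18.0, 3.28 and 8.2%), against 16.8, 8.27 and 8.61%, and down-regulated 5, 8 and 6 (8.2, 13.1 and 9.84%), against 6.67, 7.64 and 7.3%. Of the lines treated with the combination, Rara(−/−) had the most up-regulated members and Rarb(−/−) the fewest, and the shares of all genes had the same order. BMS961 alone up-regulated 6 members in Rara(−/−) and 2 in Rarb(−/−) cells (9.84 and 3.28%), against 10.9 and 7.02%, and down-regulated 6 and 3 (9.84 and 4.92%), against 8.61 and 6.96%. BMS641 alone in Rarg(−/−) cells up-regulated 6 and down-regulated 6 (9.84% each), against 8.5 and 7.82%.

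**Figure D2:**
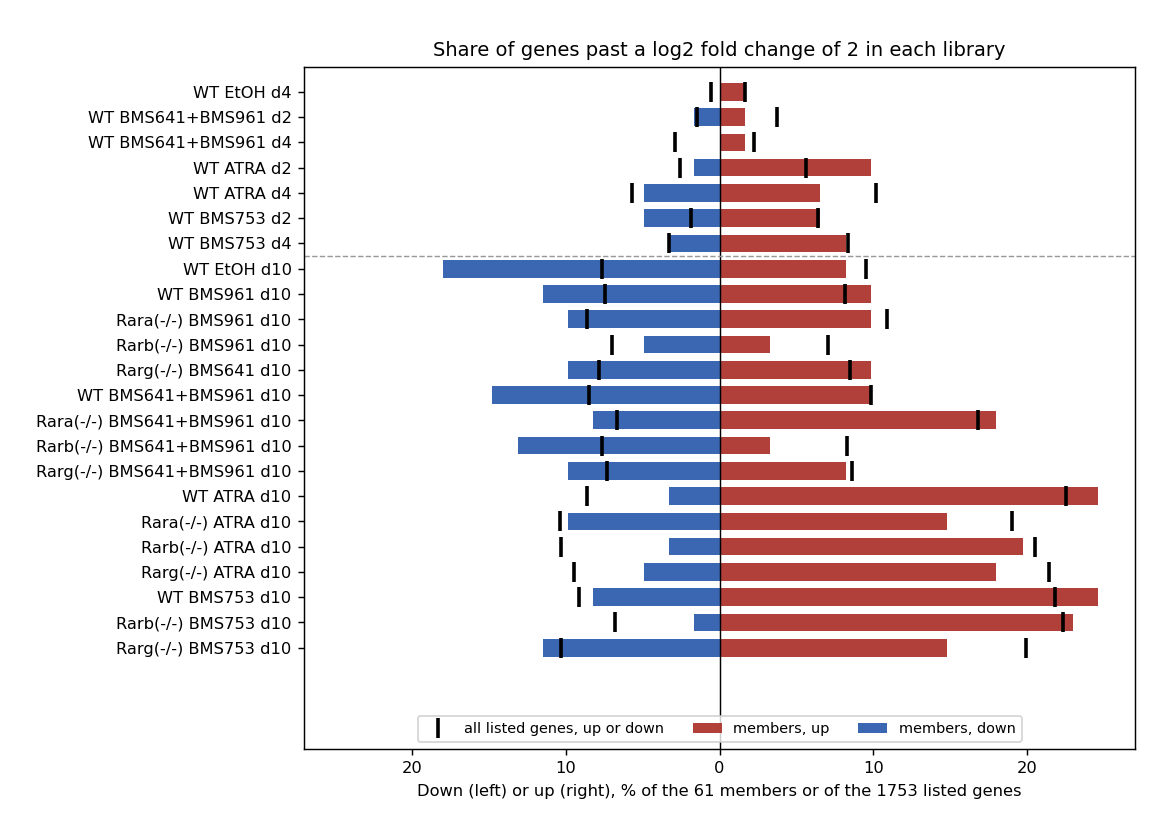
Percent of the 61 members up-regulated (red, right) and down-regulated (blue, left) in each library, with black ticks for the same percent over the 1753 listed genes. The red bars are longest for WT cells with ATRA or BMS753 at day 10 (24.6%) and the blue bar is longest for WT cells in EtOH at day 10 (18.0%).

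Gprc5a, an orphan class C receptor known as a retinoic acid-induced gene, was listed in 16 tables, the most of any member, and was up-regulated in each (chr6:135015669-135034727, plus strand, mm9). With ATRA it reached 8.29 ± 2.83 at day 4 and 6.71 ± 2.60 at day 10 in WT cells, and with BMS753 8.55 ± 2.82 and 7.66 ± 2.58. In EtOH at day 10 its value was 9.35 ± 2.37, the highest of its WT values, although the ranges of ± 1 implied SE all overlapped. The combination gave 8.19 ± 2.45 and BMS961 8.24 ± 2.37. In the mutant lines it ranged from 6.83 to 9.64 and was not listed in Rarb(−/−) cells with ATRA or with BMS961.

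Adgra2, an adhesion receptor, was up-regulated in 7 tables. It had 5.11 ± 1.70 with ATRA at day 2 in WT cells and 4.65 ± 1.77 with BMS753 at day 10, and 4.84 ± 1.71, 5.61 ± 1.90 and 5.30 ± 1.88 with ATRA in the Rara(−/−), Rarb(−/−) and Rarg(−/−) lines. Lower values, 3.56 ± 1.26 with BMS641 and 3.34 ± 1.24 with the combination, came from Rarg(−/−) cells. Day 10 tables with ATRA or BMS753 begin at 4.17 to 4.73, so Adgra2 values of this size might not have been listed there. Gpr155, an orphan receptor, had 7.00 ± 2.26 in EtOH at day 4, and at day 10 it was listed with ATRA in all 4 lines, at 7.07 to 7.72, and with BMS753 in Rarb(−/−) cells, at 7.04 ± 2.56. Gpr63, another orphan receptor, was listed with BMS641 or BMS961 only. Its 5 values lay within 6.73 and 6.99, in WT cells with the combination at day 2 and day 4, in WT and Rara(−/−) cells with BMS961 at day 10, and in Rarg(−/−) cells with BMS641.

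Adgrg1, an adhesion receptor of cortical development, had 3.91 ± 1.38 with the combination in the Rara(−/−) line and 5.08 ± 1.79 in Rarb(−/−) cells with BMS753. Gpr25 was listed once, with ATRA in WT cells at day 10. An exon of Gpr155, of Gpr63 and of Gpr25 overlaps an exon of another gene in mm9, and whether the counting used strand is not given, so reads of these pairs may not be told apart.

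The endothelin receptors were listed on different schedules. Ednrb, the receptor of neural crest and glial precursors, had 7.48 ± 2.35 at day 2, 7.11 ± 2.37 at day 4 and 6.57 ± 2.27 at day 10 with ATRA in WT cells. With BMS753 it had 8.03 ± 2.43 at day 4 and 6.44 ± 2.20 at day 10, and with the combination 5.50 ± 2.03 at day 10. These 6 values of WT cells ran from 5.50 to 8.03, a span close to 1 implied SE. In Rara(−/−) cells Ednrb had 5.73 ± 2.02 with BMS961 and 6.49 ± 2.00 with the combination, and was not listed with ATRA. With BMS753 it had 6.20 ± 2.18 in Rarb(−/−) and 5.75 ± 2.12 in Rarg(−/−) cells. ATRA at day 10 listed Ednrb in WT cells and in none of the mutant lines.

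Ednra, the endothelin receptor of mesenchyme and vascular muscle, was listed at day 10 alone and with ATRA or BMS753 alone. Its values with ATRA were 6.14 ± 2.15 in WT, 6.81 ± 2.07 in Rara(−/−), 8.09 ± 2.27 in Rarb(−/−) and 6.66 ± 2.16 in Rarg(−/−) cells. With BMS753 they were 6.58 ± 2.12 in WT, 5.33 ± 2.03 in Rarb(−/−) and 5.19 ± 1.98 in Rarg(−/−) cells. All 7 libraries with ATRA or BMS753 at day 10 listed it and none of the 9 others did. Its level in those 9 is not given by the tables. Of the 6 mesenchymal markers, 3 to 5 were up-regulated in each of these 7 libraries and 0 to 3 in each of the 9 others. Lum was listed in the same 7 libraries alone, at 5.80 to 9.34. Col3a1 had 9.51 to 11.9 in them and was also listed in 4 of the 9 others, at 4.78 with the combination in WT cells, 7.48 and 8.33 with BMS961 and with the combination in Rara(−/−) cells, and 3.71 with BMS641 in Rarg(−/−) cells. Dcn was listed with ATRA in the mutant lines only. Acta2 was up-regulated in EtOH (2.89) and in Rarg(−/−) cells with BMS641 (2.93) or the combination (2.78), and was not listed with ATRA or BMS753. The tables with ATRA or BMS753 begin at 4.17 to 4.73, so its absence there says little. The part of these mesenchymal markers in the result was not tested. An exon of Ednra also overlaps that of another gene.

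Lpar3, a receptor for lysophosphatidic acid, had 9.04 ± 2.83 at day 2 and 9.27 ± 2.82 at day 4 with ATRA, and 8.76 ± 2.82 at day 4 with BMS753. It was not listed at day 10 in any library, nor in EtOH or with the combination. Mc1r, the melanocortin receptor of melanocytes, had the opposite schedule. It was listed at day 10 in EtOH (7.31 ± 2.57), with BMS961 (7.54 ± 2.42) and with the combination (7.32 ± 2.58) in WT cells, and with BMS641 (6.79 ± 2.53) and the combination (6.77 ± 2.55) in Rarg(−/−) cells. Neither ATRA nor BMS753 listed it.

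Tacr1, the receptor for substance P, had 7.13 ± 2.60 with ATRA in WT cells and 7.18 ± 2.55 with BMS753 in Rarb(−/−) cells. The peptide somatostatin (Sst), a marker of inhibitory interneurons, was listed in the same pair of libraries, at 7.55 ± 2.34 and 8.13 ± 2.31. Oprk1, the kappa opioid receptor, was down-regulated in 4 tables. It had −5.47 ± 2.08 with BMS753 in WT cells, −5.35 ± 1.99 with ATRA and −4.92 ± 1.87 with BMS961 in Rara(−/−) cells, and −5.51 ± 1.99 with BMS753 in Rarg(−/−) cells. The odorant receptor Olfr31 was listed once, at 7.82 ± 2.49 in EtOH at day 10, and is uncertain since reads of this large gene family can be shared between copies.

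Npy, a peptide of neurons and of the neural crest, was down-regulated in 8 tables. It had −7.50 ± 2.33 with ATRA and −5.06 ± 1.85 with BMS753 at day 4. At day 10 it was listed without ATRA or BMS753 only, from −3.67 to −4.55 with a median of −3.94, including −3.87 ± 1.34 in EtOH. These day 10 values are smaller in size than the smallest value of several of the tables with ATRA or BMS753, so the absence there says little.

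**Figure D3:**
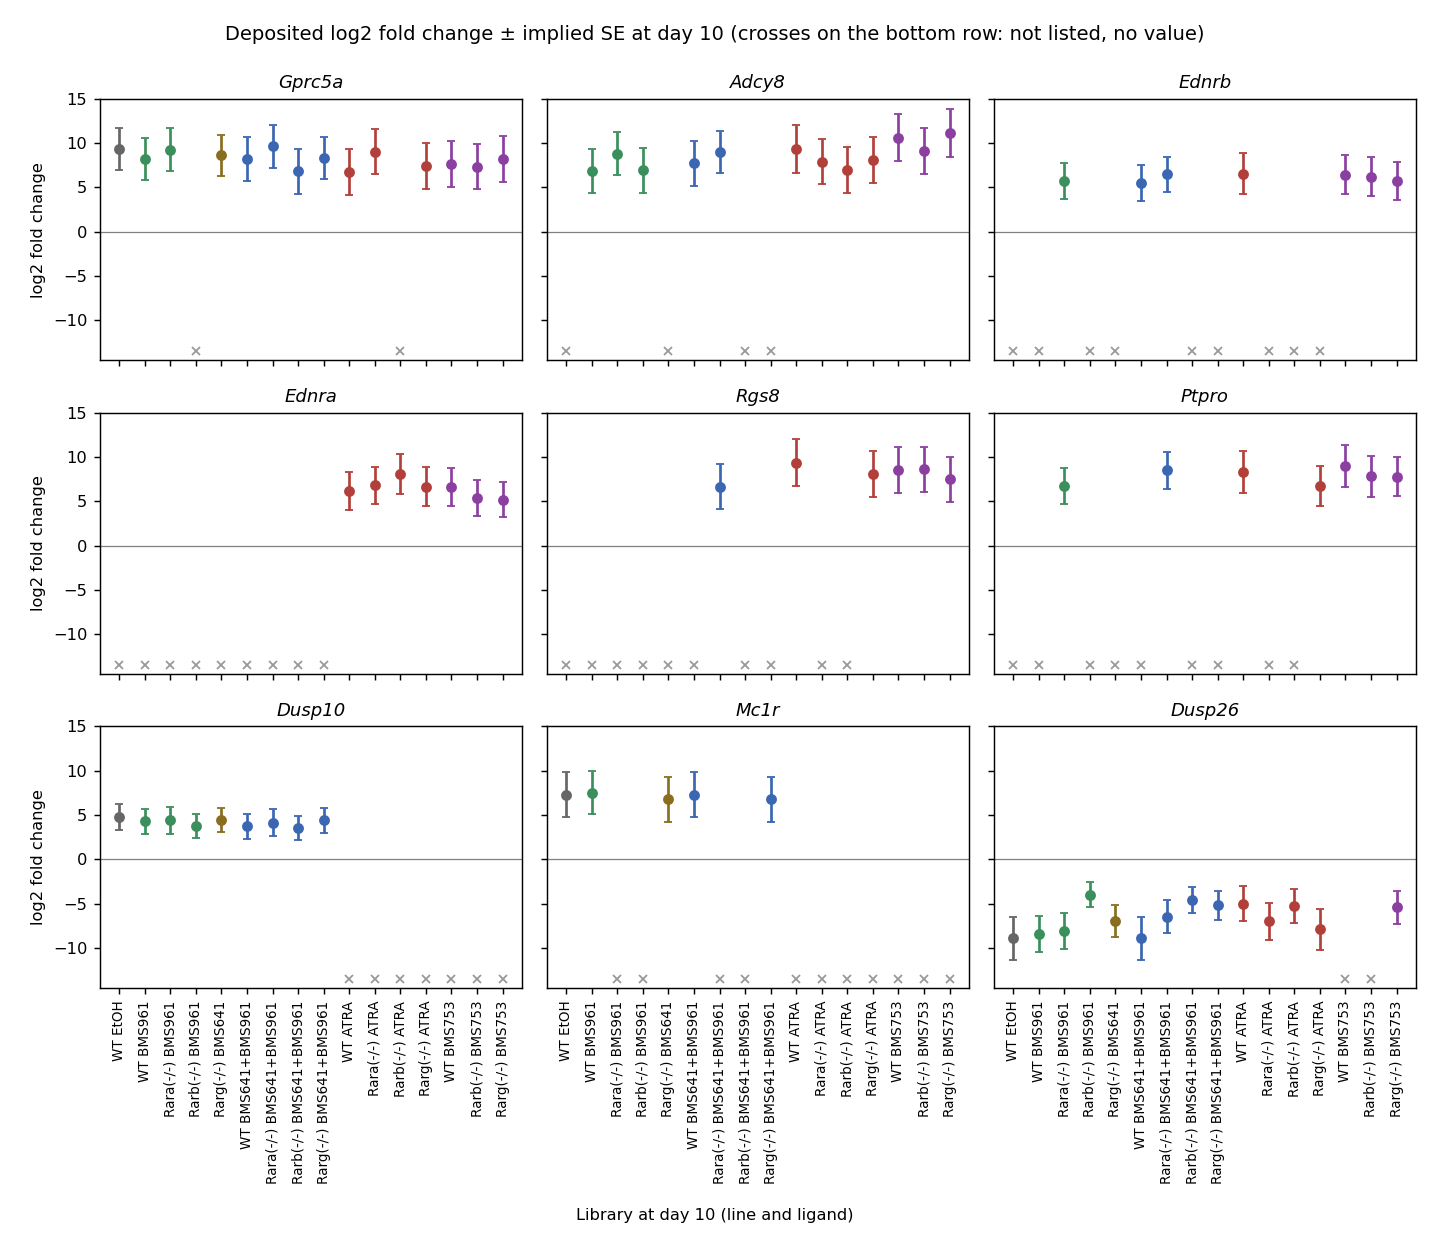
Log2 fold change against WT EtOH at day 2 (vertical axis) for 9 members in the 16 day 10 libraries (horizontal axis), coloured by ligand, with bars of ± 1 implied SE. Crosses on the bottom row mark libraries that did not list the gene. Ednra has points only with ATRA or BMS753, Dusp10 and Mc1r only without them, and Gprc5a on both sides.

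Of the 5 G protein subunits, 4 were down-regulated where listed, and 34.1% of all 1753 genes had values below 0 only. So few genes do not describe the family. Gng13, a gamma subunit of taste and olfactory cells, was down-regulated in 7 tables. In WT cells it had −5.83 ± 2.05 with ATRA at day 4, −5.05 ± 1.85 with BMS753 and −3.42 ± 1.31 with BMS961 at day 10. In the mutant lines it had −4.99 ± 1.78 with ATRA and −4.15 ± 1.5 with the combination in Rara(−/−) cells, and −4.83 ± 1.86 with ATRA and −5.01 ± 1.78 with BMS753 in Rarg(−/−) cells. Gngt2, the gamma subunit of cone photoreceptors, had −5.01 ± 1.93 with ATRA and −5.03 ± 1.86 with BMS961 in Rara(−/−) cells and −6.18 ± 2.06 with BMS753 in Rarg(−/−) cells. Gnat2, the cone alpha subunit, was listed once, at −6.85 ± 2.36 with the combination at day 2. Gng8 had −4.52 ± 1.64 in EtOH at day 10, and Gng4 alone was up-regulated, at 5.16 ± 1.93 with ATRA. Exons of Gng13 overlap those of Chtf18, and exons of Gngt2 those of Abi3, on the opposite strand.

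Rgs proteins act on the alpha subunit to end its signal. Rgs8, a neuronal member, had 8.37 ± 2.83 at day 4 and 9.34 ± 2.67 at day 10 with ATRA, and 8.50 ± 2.59 with BMS753 at day 10. It had 6.65 ± 2.57 in Rara(−/−) cells with the combination, 8.59 ± 2.58 in Rarb(−/−) cells with BMS753, and 8.07 ± 2.60 and 7.47 ± 2.53 in Rarg(−/−) cells with ATRA and BMS753. Of the 9 libraries at day 10 without ATRA or BMS753, the Rara(−/−) one with the combination was thus the single one to list it. Rgs4 had 5.95 ± 2.07 with ATRA and 6.42 ± 2.04 with BMS753 in WT cells, and 5.43 ± 2.00 and 6.79 ± 2.07 in Rarb(−/−) cells. Rgs2 had 4.87 ± 1.85 with ATRA and 4.80 ± 1.77 with BMS753 in WT cells, 4.59 ± 1.67 with ATRA and 3.83 ± 1.38 with the combination in Rara(−/−) cells, and 4.47 ± 1.67 with BMS753 in Rarg(−/−) cells. Gprin1, a G protein partner in neurite growth, had 5.50 ± 1.93, 5.12 ± 1.82 and 5.22 ± 1.82 in WT cells with ATRA, WT cells with BMS753 and Rarb(−/−) cells with BMS753.

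Rgs11 went the other way and was listed without ATRA or BMS753 only. It had −7.54 ± 1.97 with the combination and −4.45 ± 1.42 with BMS961 in WT cells, and −4.64 ± 1.54 and −6.26 ± 1.73 in Rara(−/−) cells. In Rarb(−/−) cells the combination gave −3.85 ± 1.31 and in Rarg(−/−) cells BMS641 gave −3.21 ± 1.23. EtOH did not list Rgs11. The gene lies 484 kb from Gng13 on chromosome 17. Both were down-regulated where listed, but the same library listed both only in WT cells with BMS961 and in Rara(−/−) cells with the combination.

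Adcy8, the adenylyl cyclase stimulated by calcium and calmodulin, was up-regulated in 15 tables and held the largest value of any member (chr15:64530604-64753858, minus strand). In WT cells it had 8.31 ± 2.87 with ATRA and 7.63 ± 2.27 with BMS753 at day 2, 8.91 ± 2.83 with BMS753 at day 4, and 9.35 ± 2.67 and 10.61 ± 2.68 with these ligands at day 10. With the combination it had 7.73 ± 2.51 and with BMS961 6.86 ± 2.52, while EtOH did not list it at day 4 or day 10. In Rara(−/−) cells it had 7.91 ± 2.53 with ATRA, 8.79 ± 2.43 with BMS961 and 8.99 ± 2.41 with the combination. In Rarb(−/−) cells it had 6.94 ± 2.60 with ATRA, 9.08 ± 2.60 with BMS753 and 6.95 ± 2.52 with BMS961. Rarg(−/−) cells had 8.14 ± 2.60 with ATRA and 11.14 ± 2.66 with BMS753, and did not list it with BMS641 or the combination. At day 10, Adcy8 was thus listed in all 7 libraries with ATRA or BMS753 and in 5 of the 9 others.

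The phosphodiesterases, which break down cyclic nucleotides, were each listed in few libraries. Pde3a had 5.01 ± 1.86 with BMS753 in WT cells, and 5.72 ± 1.85, 6.64 ± 2.04 and 5.39 ± 1.93 with ATRA in the Rara(−/−), Rarb(−/−) and Rarg(−/−) lines. Pde1a, which calmodulin stimulates, was listed in Rarb(−/−) cells with ATRA, at 5.97 ± 2.21. Pde4b and Pde9a, specific for cyclic AMP and cyclic GMP, were down-regulated by BMS753 at day 2, at −3.10 ± 1.16 and −2.11 ± 0.82, and in no other table.

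Plcg2, a phospholipase C that tyrosine kinases activate, was down-regulated in 10 tables (chr8:120022191-120159040, plus strand). It had −6.22 ± 1.95 at day 4 and −7.45 ± 2.11 at day 10 with ATRA, and −6.18 ± 1.91 with BMS753 at day 10. In the mutant lines with ATRA or BMS753 it lay between −5.28 and −7.64. EtOH and the combination in WT cells gave −2.81 ± 1.09 and −3.08 ± 1.11. All 7 libraries with ATRA or BMS753 at day 10 thus listed Plcg2 at −5.28 or lower, while values near −3 could be listed only in the other tables, given the limit of each. Plce1 was down-regulated in EtOH at day 10, at −3.11 ± 1.14, and Prkcq, a protein kinase C, was up-regulated by BMS753 at day 4, at 7.16 ± 2.27.

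Among calcium-related genes, Calb1, the calcium buffer of many interneurons, was up-regulated with BMS753 in WT, Rarb(−/−) and Rarg(−/−) cells, at 7.38 ± 2.58, 7.85 ± 2.56 and 6.69 ± 2.57, and with the combination in Rara(−/−) cells, at 6.64 ± 2.57. It was not listed with ATRA in any line. Calml4, a calmodulin-like gene, had 5.37 ± 2.00 with BMS753 in WT cells, 7.70 ± 2.20 with ATRA in Rarb(−/−) cells and 4.64 ± 1.77 with the combination in Rara(−/−) cells. Camkv, a kinase-like protein of synaptic vesicles, was down-regulated in 6 tables, from −2.86 to −4.91. Camkk1, which activates calmodulin-dependent kinases, had −3.70 ± 1.36 in EtOH at day 10 and −3.31 ± 1.26 in Rarg(−/−) cells with the combination.

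Ptpro, a receptor-type tyrosine phosphatase of podocytes and neurons, had 8.30 ± 2.39 with ATRA and 8.95 ± 2.37 with BMS753 in WT cells. It had 6.72 ± 2.01 with BMS961 and 8.49 ± 2.08 with the combination in Rara(−/−) cells, 7.82 ± 2.28 with BMS753 in Rarb(−/−) cells, and 6.72 ± 2.25 and 7.78 ± 2.23 with ATRA and BMS753 in Rarg(−/−) cells. Rara(−/−) and Rarb(−/−) cells with ATRA did not list it, nor did WT cells in EtOH, with BMS961 or with the combination. Ptpro lies 310 kb from Arhgdib on chromosome 6. Ptprt had 3.82 ± 1.44 with the combination in the Rara(−/−) line and 4.83 ± 1.83 in Rarb(−/−) cells with ATRA, Ptprv 5.88 ± 1.99 in the latter, and Ptprz1, a phosphatase of glial precursors, 2.76 ± 0.90 with BMS753 at day 2.

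The Dusp genes, whose products switch off MAP kinases, were listed mostly at day 10. Dusp26 (chr8:32199943-32207519, plus strand) was down-regulated in 14 tables, all at day 10. In WT cells it had −8.91 ± 2.39 in EtOH, −8.91 ± 2.38 with the combination, −8.41 ± 2.02 with BMS961 and −4.97 ± 1.93 with ATRA, and BMS753 did not list it. In the mutant lines it ranged from −3.98 ± 1.43 in Rarb(−/−) cells with BMS961 to −8.03 ± 2.03 in Rara(−/−) cells with BMS961. The values in EtOH and with the combination were the same within 0.0001, and so were those of Arhgap9, at −6.94 in both, and of Rasd1 in 2 Rarb(−/−) libraries, at −6.66. In each case it was the lowest value of the gene. A repeated value can arise where both libraries hold 0 reads of the gene, and it would then be a limit and not a measured fold. The read counts were not seen, so this was not tested.

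Dusp10, a phosphatase of the stress kinases JNK and p38, was up-regulated in all 9 day 10 libraries without ATRA or BMS753. Its values were 4.78 ± 1.45 in EtOH, 4.33 ± 1.41 with BMS961 and 3.72 ± 1.40 with the combination in WT cells, and 3.52 to 4.44 in the mutant lines. None of the 7 libraries with ATRA or BMS753 listed it, but the tables of those libraries begin at 4.17 to 4.73, so values of this size might not have been listed there. Dusp14 had the same direction in 5 of the 9 libraries, from 3.34 ± 1.23 to 4.26 ± 1.32, and the same limit applies. Dusp15 was down-regulated in 5 of them, from −4.2 ± 1.62 in Rarb(−/−) cells with the combination to −7.83 ± 2.49 in EtOH. Dusp9 was up-regulated by ATRA (3.73 ± 1.42) and Dusp5 by BMS753 (2.92 ± 0.93) at day 2 only.

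Of the Ras genes, Rasgrp3, an exchange factor that diacylglycerol activates, was up-regulated at day 2 only, at 6.49 ± 2.05 with ATRA and 4.38 ± 1.45 with BMS753. Rasd1, a small GTPase induced by glucocorticoids, was down-regulated in 6 tables, all of mutant lines. It had −6.00 ± 2.28 and −6.44 ± 2.36 in Rara(−/−) cells with BMS961 and the combination, −6.66 ± 2.58 and −6.66 ± 2.55 in Rarb(−/−) cells with the same (a repeated value, as for Dusp26), and −6.04 ± 2.32 and −5.66 ± 2.16 in Rarg(−/−) cells with the combination and BMS753. Each of these is within 3 implied SEs of 0, and WT cells may have moved without being listed. Rassf4 was down-regulated in 5 of the 9 libraries without ATRA or BMS753, from −3.27 ± 1.18 to −5.40 ± 1.48, the latter in EtOH. All but the EtOH value are smaller in size than 4.17, the lowest start of a day 10 table with ATRA or BMS753. The absence of Rassf4 from those tables thus says little. Rasgrp2, Rasal1 and Rasgef1b were listed once each, at −4.97 ± 1.78 with BMS753 at day 4, −5.22 ± 2.00 with BMS753 at day 10, and 4.84 ± 1.84 in Rarb(−/−) cells with BMS753.

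Of the Arhg genes, which encode regulators of small GTPases of the cytoskeleton, Arhgdib, an inhibitor that holds such GTPases in the cytosol, was up-regulated with ATRA or BMS753 only. It had 6.94 ± 2.60 with ATRA and 7.54 ± 2.58 with BMS753 in WT cells, 7.14 ± 2.55, 8.11 ± 2.60 and 8.35 ± 2.61 with ATRA in the Rara(−/−), Rarb(−/−) and Rarg(−/−) lines, and 7.31 ± 2.54 with BMS753 in Rarg(−/−) cells. Arhgdib is abundant in blood cells. Of the blood markers Ptprc, Cd68 and Hbb-bt, 0 of 3 were listed in any table, and the part of such cells in its values was not tested. Arhgap20 had 6.85 ± 2.56 and 6.95 ± 2.59 with ATRA in Rara(−/−) and Rarg(−/−) cells. Arhgef15, an exchange factor of endothelium and neurons, was down-regulated in 8 tables. It had −5.07 ± 1.92 with ATRA and −4.75 ± 1.32 with BMS753 at day 2, and at day 10 it had −5.65 ± 1.70 in EtOH and −6.31 ± 1.85 with the combination, and it was listed at day 10 without ATRA or BMS753 only. Arhgap22 had −3.51 ± 1.26 and −3.35 ± 1.21 with the combination in WT and Rarb(−/−) cells, Arhgap27 −5.11 ± 1.84 with BMS753, and Arhgef28 −3.28 ± 1.19 in EtOH. Exons of Arhgap9, Arhgap20, Arhgap22 and Arhgap27, and of Rasgrp2, overlap those of other genes.

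At day 2 and day 4 in WT cells, 21 members were listed. Those of EtOH and of the combination were few. EtOH at day 4 listed Gpr155 alone, and the combination listed Gpr63 at both days and Gnat2 at day 2. With ATRA, Lpar3 and Ednrb were listed at both days, Adcy8, Rasgrp3, Adgra2, Dusp9 and Arhgef15 at day 2, and Gprc5a, Rgs8, Gng13, Plcg2 and Npy at day 4. With BMS753, Adcy8 was listed at both days, Rasgrp3, Arhgef15, Ptprz1, Dusp5, Pde4b and Pde9a at day 2, and Lpar3, Ednrb, Gprc5a, Npy, Prkcq and Rasgrp2 at day 4. The smallest absolute value in the day 2 table was 3.55 with ATRA and 1.82 with BMS753, so the small day 2 values of Ptprz1, Dusp5, Pde4b and Pde9a with BMS753 lie under the smallest value that the ATRA table holds. Markers of cell types moved in the same early libraries. Of the 7 embryonal carcinoma markers, 4 were down-regulated with ATRA at both days and 3 with BMS753 at day 4, and 0 with BMS753 at day 2, with the combination or in EtOH at day 4. The precursor marker Pdgfra was up-regulated with ATRA at day 2 (7.64) and with BMS753 at day 4 (7.45). At day 4 the mesenchymal marker Col3a1 was up-regulated with ATRA (6.73) and BMS753 (5.23). ATRA at day 4 also up-regulated mesenchymal Col1a2 (4.36) and neuronal Dcx (5.64). It down-regulated the astrocyte marker Aldh1l1 (−5.92) and endothelial Tek (−4.62). The part of these markers in the early values of the members was not tested.

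**Figure D4:**
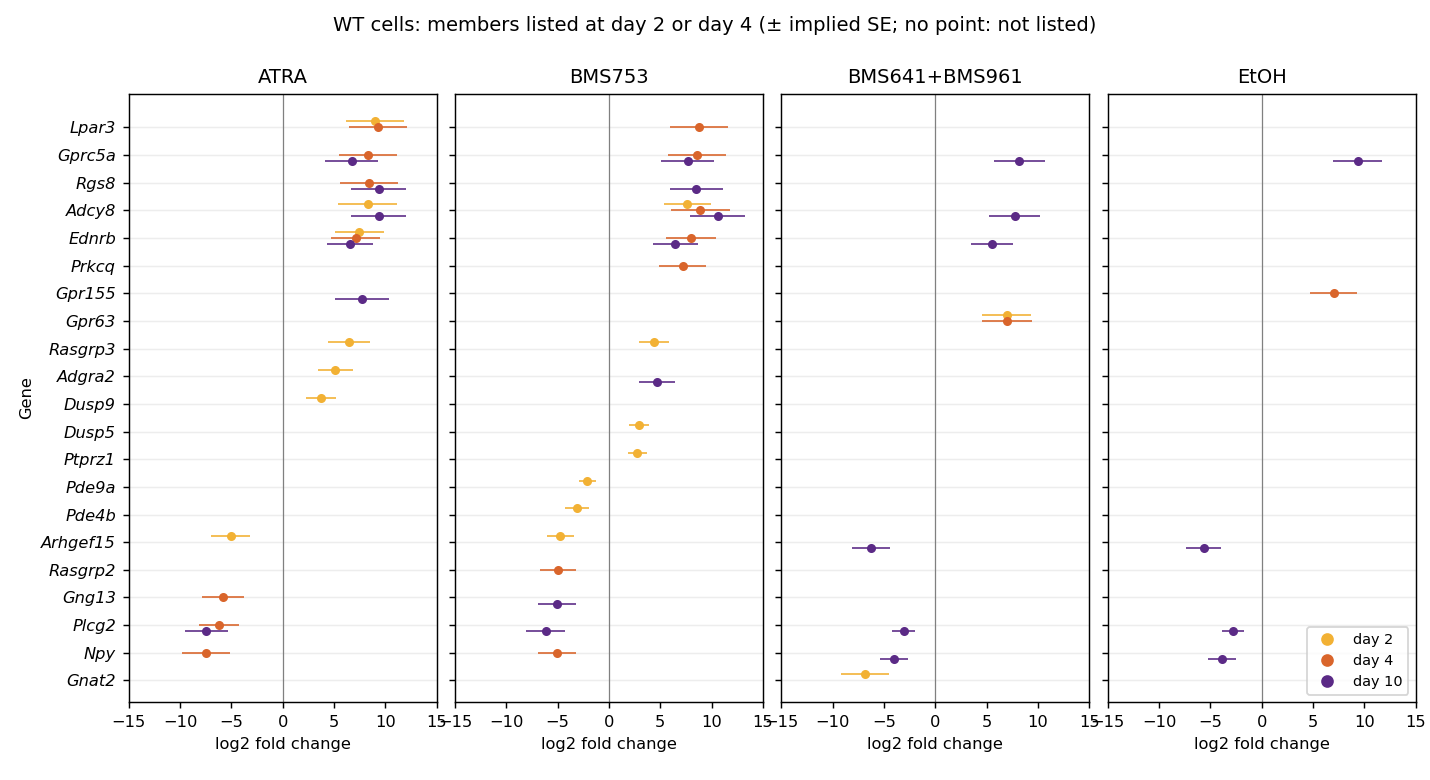
Log2 fold change against WT EtOH at day 2 (horizontal axis) in WT cells for the 21 members listed at day 2 or day 4 (vertical axis), by ligand, with bars of ± 1 implied SE and colours for days 2, 4 and 10. Lpar3 has points at the early days only, while Ednrb and Adcy8 carry on to day 10 with ATRA and BMS753.

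Compounds given at the same dose and for the same time were set side by side at day 10, in 7 pairs of libraries. BMS753 and ATRA, both at 1 µM, both listed 11 members in WT cells. Their differences (BMS753 minus ATRA, log2) ran from −0.84 for Rgs8 to 1.26 for Adcy8 and Plcg2, and 0 of the 11 exceeded 1 SE of the difference. In Rarb(−/−) cells the 5 members listed with both differed by −2.76 to 2.37, and in Rarg(−/−) cells the 9 by −1.47 to 3.0, again with 0 beyond 1 SE. With 1 library each, an SE of the difference of 2.56 to 3.79 leaves differences of several log2 units undetected. Members listed with 1 of the ligands have no difference to give. In WT cells they were 9 with BMS753 alone and 6 with ATRA alone (45 and 35.3% of the members listed with each), against 24.5 and 24.9% of all genes listed with each. In Rarb(−/−) cells they were 10 and 9 (66.7 and 64.3%), against 52 and 54.5%, and in Rarg(−/−) cells 7 and 5 (43.8 and 35.7%), against 26.1 and 27.7%. The SE of the difference was taken as if each value had a reference of its own, although both share it.

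The combination and BMS961 alone, each agent at 0.1 µM, listed 10 members in common in WT cells. Their differences (combination minus BMS961) were −3.09 to 0.87, with 1 beyond 1 SE and 0 beyond 2. That one was Rgs11, at −7.54 with the combination and −4.45 with BMS961 alone, a difference of −3.09 ± 2.43. In Rara(−/−) cells the 9 shared members differed by −0.44 to 1.77, the largest for Ptpro, and in Rarb(−/−) cells the 4 shared members by −0.58 to 0, the latter for the repeated value of Rasd1. In Rarg(−/−) cells the combination and BMS641 alone differed by −0.59 to 1.73 over 9 members. None of these differences in the mutant lines exceeded 1 SE. Members listed with the combination alone were 5, 7, 6 and 2 in WT, Rara(−/−), Rarb(−/−) and Rarg(−/−) cells. These are 33.3, 43.8, 60 and 18.2% of the members listed with it, against 46.6, 39.4, 35.8 and 13.3% for all genes. With the single agent alone they were 3, 3, 1 and 3 (23.1, 25, 20 and 25%), against 37.2, 27.2, 26.9 and 15.4%. ATRA and BMS753 were given at 10 times the dose of BMS641 and BMS961, so values across these groups stand side by side and were not compared as compounds.

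In Rara(−/−) cells the combination up-regulated 7 members that it did not up-regulate in WT cells, Ptpro, Rgs8, Rgs2, Calb1, Calml4, Ptprt and Adgrg1. This is 7 of 61, against 10.8% of all listed genes. Their values in Rara(−/−) cells were 8.49 ± 2.08, 6.65 ± 2.57, 3.83 ± 1.38, 6.64 ± 2.57, 4.64 ± 1.77, 3.82 ± 1.44 and 3.91 ± 1.38 in that order. Of these, Ptpro, Rgs8, Rgs2, Calb1 and Calml4 were also up-regulated by BMS753 in WT cells, at 8.95, 8.50, 4.80, 7.38 and 5.37. This is 5 of 7 (71.4%), close to the 70.4% of the 189 genes of the whole set with that pattern. With p-values under 0.001, Ptpro alone of the 7 remained in the Rara(−/−) line. Adcy8 then joined it, since its WT value missed that limit, and 57 genes of the whole set were up-regulated in Rara(−/−) and not in WT cells. The reverse, up-regulation by the combination in WT but not in Rara(−/−) cells, held for Mc1r and Dusp14, which EtOH also up-regulated. This is 2 of 61, against 3.88% of all listed genes. Not being listed in the WT table does not give a value there, and the difference between the lines was not tested.

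Markers of the cell types that such cultures can hold moved along with these libraries. Of 7 embryonal carcinoma markers, 4 were listed and all were down-regulated, 1 to 4 in each day 10 library with ATRA or BMS753 and 0 to 2 in each of the 9 others. Pou5f1 had −9.88 ± 2.30 with ATRA and −8.14 ± 2.09 with BMS753 at day 10 in WT cells and was not listed in EtOH, with the combination or with BMS961. Nanog and Tdgf1 were down-regulated in these as well, at −3.24 and −3.37 in EtOH, −4.32 and −5.12 with the combination, and −3.51 and −4.37 with BMS961. Of 8 neuronal markers, 5 were up-regulated, 2 to 5 in each day 10 library with ATRA or BMS753 and 0 to 3 in each of the others. Gria2 was in all 7 of the former, at 10.12 to 11.67, and at 8.13 ± 2.45 and 9.47 ± 2.42 with BMS961 and with the combination in the Rara(−/−) line. Dcx was in 6 of the 7, and also with the combination in WT cells, at 4.67 ± 1.43, and in both of these Rara(−/−) libraries. Syt1 was in 6, Map2 in 5 and Tubb3 in 2 of the 7, and Map2 was also listed with the combination in Rara(−/−) cells, at 3.69 ± 1.35. Of 5 astrocyte markers, S100b was up-regulated once and Aldh1l1 was down-regulated, while Gfap, Aqp4 and Slc1a3 were not listed. Of 5 oligodendrocyte precursor markers Pdgfra alone was listed, up-regulated in all 7 day 10 libraries with ATRA or BMS753, at 8.73 to 13.09, and in 6 of the 9 others, all of mutant lines, at 6.97 to 8.10. Of 5 endoderm markers, Gata6 and Foxa2 were up-regulated, at day 10 with ATRA or BMS753 in mutant lines only. In WT cells they were up-regulated early, Gata6 at 6.62 and 6.29 with ATRA at days 2 and 4 and at 5.88 with BMS753 at day 4, and Foxa2 at 6.47 with ATRA at day 2. Of 4 endothelial markers, Kdr was up-regulated in 4 of the 7 libraries and 1 of the 9 others, and Tek was down-regulated in 5 of the 7 and 6 of the 9. The part of each cell type in the values of the members was not tested.

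Of the marker lists compiled by the study, the neuronal list held 20 of the 61 members (32.8%), against 18.8% of all listed genes, and the dopaminergic list 12 (19.7%), against 7.3%. The GABAergic and glutamatergic lists held 5 members each (8.2%), against 4.45 and 3.88%. The astrocyte list held Pde9a and Ptprz1 (3.28%, against 5.59%), and the oligodendrocyte precursor list Ednrb and Lpar3 (3.28%, against 5.7%). The neuronal members moved in both directions. Adcy8, Rgs8, Sst, Tacr1, Calb1, Gprin1, Dusp14, Dusp5, Pde1a, Pde3a, Ptprt, Rasgef1b and Rasgrp3 were up-regulated where listed. The rest of the 20, Npy, Gng13, Oprk1, Rasd1, Rgs11, Pde4b and Rasgrp2, were down-regulated. These shares describe the symbols and were not tested.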

How the data were processed

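RNA sequencing of P19 cells gave 24 samples with 1 library each, prepared by the authors from poly(A) RNA. The authors mapped reads to mm9 with Bowtie2 2.1.0, counted them per gene with featureCounts, and used DESeq2 to compare every library with WT EtOH at day 2. They deposited 23 tables of log2 fold changes with the unadjusted p-value of each gene, and in 1 of them the standard error, a deposited score in log2 units. These columns hold the authors' own comparison, and nothing else is in the tables. Counts were not used here, so depth is unknown. All deposited p-values are under 0.01.

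Members were taken by the letters of their symbol. Members and gene lists were chosen with earlier results of these data known. The implied SE is the absolute log2 fold change over the normal deviate of its two-sided p-value. For the 144 genes with a deposited standard error, it differed by at most 4.27e-08 in relative terms. With 1 library per condition no test was run, and calls (log2 fold change over 2 or under −2) are counts. The code that makes these counts was checked on simulated tables. Columns of samples outside the series numbered 0.

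Genes were named by role if listed in at least 6 tables, at day 2 or day 4, among the 15 highest and 10 lowest with ATRA at day 10 in WT cells, as a peptide or a receptor named for its ligand, as up-regulated in EtOH at day 10, or in Rara(−/−) but not WT cells with the combination, and the rest were added so that every member is accounted for. Alternatives were other thresholds, a stricter p-value limit, removal of genes called in EtOH, and other matches of symbols. Positions are from the mm9 annotation, and promoters from RefSeq (GRCm38.p6), found again by exact match in mm9. Scripts ran in Python 3.11.15 (numpy 2.4.6, pandas 2.3.3, matplotlib 3.10.9, scipy 1.17.1). The values of 1 member are not reported here, while the counts over members include it.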

Additional observations from a re-analysis of the deposited data

How the results depend on the processing

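No paired analysis was run. Libraries of a line could be paired, but a gene not listed has no value to pair. Each condition has 1 library, so no replicate could be left out. For 7 counts of members, 48 alternative settings were run and 39 stayed within 1.5 times of the reported count. Thresholds of 1 and 3 on the log2 fold change, removal of Gprin1 as outside the families, removal of odorant receptors, and addition of 8 genes by older symbols all did so. The letters of an older symbol alone chose these 8, and Col2a1, Grin1 and Cavin3 among them are not of these families. No member value was under 2.11 in size, so a threshold of 1 could change no count. A threshold of 3 could not change those of ATRA and BMS753 in WT cells or of the combination in Rara(−/−) cells. There the smallest absolute value of any gene was 4.73, 4.46 and 3.35. With p-values under 0.001 in place of the authors' limit, the members up-regulated at day 10 fell from 15 to 3 with ATRA and from 15 to 2 with BMS753 in WT cells, from 6 to 1 with the combination, from 5 to 2 in EtOH, and from 11 to 3 in Rara(−/−) cells with the combination, and the members down-regulated with ATRA fell from 2 to 1. The number that the combination up-regulated in the Rara(−/−) line and not in WT cells went from 7 to 2. Of the 7, Ptpro alone remained, and Adcy8 entered because its WT value missed the stricter limit. Of all genes, this limit left 23.8, 28.5, 20.8, 19.2 and 28.2% of the up-regulated, 23.2% of those down-regulated with ATRA, and a number 30.2% as large for the last count. With genes also called in EtOH at day 10 removed, the up-regulated members of the combination in WT cells fell from 6 to 2 (51.4% of all genes that it up-regulated were lost as well) and the down-regulated members of ATRA, Dusp26 and Plcg2, from 2 to 0 (27.2% of all genes that it down-regulated were lost). The stricter limit leaves fewer values by construction. Depth is unknown, so no detection limit could be given for members that were not listed.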

Other observations

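Genes of the same pathways with other names were taken from a list of 139 receptors, peptides and effectors, of which 30 were listed, 14 up-regulated and 16 down-regulated in some library. In WT cells at day 10, ATRA up-regulated 9 and down-regulated 4 of them, BMS753 8 and 5, the combination 4 and 7, and EtOH 2 and 6. Of the 30 listed, these are 30, 26.7, 13.3 and 6.67% up-regulated, against 22.5, 21.8, 9.87 and 9.53% of all listed genes, and 13.3, 16.7, 23.3 and 20% down-regulated, against 8.61, 9.13, 8.5 and 7.64%. Adcyap1r1, the receptor of the peptide PACAP that acts through adenylyl cyclase, had 10.41 with ATRA and 9.19 with BMS753 in WT cells at day 10, and 7.07 and 9.08 in Rara(−/−) cells with BMS961 and with the combination. It was not listed with the combination in WT cells, and in EtOH at day 4 it had 6.80 ± 2.29. Pnoc, the nociceptin precursor, was listed in the 7 libraries with ATRA or BMS753 only, at 7.07 to 10.62. Cartpt, a neuropeptide, had 7.15 with ATRA, 8.14 with BMS753 and 7.22 with the combination in WT cells, and 11.1 in Rarb(−/−) cells with BMS753.

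Rapgef3, the cyclic AMP-activated exchange factor for Rap, was up-regulated in 14 of the 16 day 10 libraries, EtOH included (7.00), at 6.82 to 8.70. Among the down-regulated genes, the serotonin receptor Htr1d was listed at −8.44 in 6 tables of WT cells, EtOH at day 10 among them, a single repeated number that may be a limit set by 0 reads and not a measured fold, which was not tested. The calcitonin receptor Calcr had −6.84 with ATRA, −5.48 with BMS753 and −4.54 in EtOH at day 10. Trh, the thyrotropin-releasing hormone precursor, had −5.64, −4.83 and −8.75 in these libraries, the last again a repeated value, found in 3 tables. Grm2 and Grm7, glutamate receptors, were up-regulated in 2 tables each.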
